A study of Mus musculus with 9 samples.

Results

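Metalloproteinases and their tissue inhibitors were followed across 3 genotypes of cultured mouse hepatic stellate cells. The genes were taken by name from the deposited expression table: every row whose symbol begins with Mmp, Adam or Timp and a number, or with Adamts. The rule gave 39 of the 14020 genes in the table. They comprised 11 matrix metalloproteinases (Mmp), 10 membrane-anchored ADAM proteins, 11 secreted ADAMTS proteases, 4 ADAMTS-like genes (Adamtsl) and 3 inhibitors (Timp). Of the 39 genes, 29 reached 10 normalized counts in 3 libraries or more and were tested, and 10 were too low to be tested.

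Matrix metalloproteinases are zinc-dependent enzymes that cut collagens, laminins and other matrix proteins, and most are made as inactive precursors. ADAM proteins sit in the cell membrane and release the outer parts of other surface proteins, while ADAMTS proteins are secreted and act on proteoglycans, procollagens and microfibrils. TIMPs bind the active site and block these enzymes. Hepatic stellate cells, the pericytes of the liver sinusoid, are known to make both matrix proteases and TIMPs when they turn into myofibroblasts in liver fibrosis.

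RNA was sequenced from stellate cells grown for 4 days in DMEM with fetal bovine serum and given no further treatment. Each group had 3 libraries: wild type (WT), Sqstm1 knock-out (Sqstm1 KO), and Nbr1-Sqstm1 double-knock-out (DKO, labelled as lacking both genes). Sqstm1 encodes p62 and Nbr1 encodes NBR1, both receptors of selective autophagy. The series is about how NBR1 and p62 act on the STING pathway in stellate cells. The labels give no age, sex, Cre driver or floxed allele, and they do not say whether replicates were separate animals or cultures. The p-values below thus rest on the spread among these libraries, which may be technical. The series text speaks of an Nbr1 knock-out, a genotype that no library label carries on its own.

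Library totals were 819677 to 1467793 reads, of which 2488 to 5125 fell on the 39 genes. Sqstm1 was lower than WT in Sqstm1 KO (223, 255 and 243 against 40.8, 30.8 and 86.8, limma adjusted p = 0.00230) and in DKO (25.8, 51.4 and 59.9, limma adjusted p = 0.00116). Nbr1 was 106, 92.7 and 106 in WT and 81.3, 79.9 and 111 in DKO (limma adjusted p = 0.735), so its value does not check the Nbr1 label. Uty, Kdm5d, Eif2s3y and Ddx3y, all on the Y chromosome, were at 0 in every Sqstm1 KO library, so the sex of the source and the genotype cannot be told apart in comparisons with Sqstm1 KO. In DKO, Ddx3y (44.5 to 54.8) and Eif2s3y (5.74 to 29.3) were also below WT (67.8 to 76.4 and 60.6 to 72.2), while Kdm5d and Uty overlapped, and a part of the source's sex in DKO against WT was not tested. Sqstm1 KO replicate 3 stood apart, with correlations of 0.847 to 0.853 across genes to the other libraries of its group, against 0.878 to 0.966 in the other within-group pairs. Of 16 stellate markers 11 were measured, with a sum of 1576 to 1715 in WT, 5561 to 6286 in Sqstm1 KO and 4564 to 6672 in DKO. Most of this sum was Col1a1 and Col1a2. The defining markers Des, Lrat, Reln, Gfap and Lhx2 had no row and were not analysed here. No neutrophil or lymphocyte marker of the lists had a row.

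A limit on every value concerns the strand. The library kit, its strandedness and the read counter were not given in the sources used here. Exons on the other strand overlapped the gene in 71 of the 100 genes with the highest values, against 36.3% of the other matched genes. Pcsk7 had a mean of 10632 and Tagln, which shares 108 exon bases with it on the other strand, had 271. Per kilobase of exon, Mmp24, known mainly from the nervous system, had 146 normalized counts and Mmp19 had 149, while the housekeeping gene Gapdh had 26.4. Whether reads were assigned to the strand opposite the gene was not tested, and if they were, every value here would be affected. Beyond these, levels are not compared between genes. Of the 29 tested genes, 9 have an exon overlap on the other strand, and most partners are named where these genes are described.

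Across the 3 comparisons 11 of the 29 tested genes changed at least once: Timp1, Mmp2, Mmp14, Adam12, Adam21, Adamts2, Adamts4, Adamts5, Adamts7, Adamts9 and Adamts14. Of all tested genes, 12% changed at least once. The other 18 did not pass the threshold anywhere. Values are gene read counts divided by a size factor per library (normalized counts), and the test was limma's moderated model on log2 of the value plus 1 with Benjamini-Hochberg adjustment over all 10118 tested genes and a threshold of 0.05. In Sqstm1 KO against WT, Timp1 and Mmp14 rose and Mmp2, Adam21, Adamts7 and Adamts14 fell, which is 6 of 29 (20.7%), beside 5.61% of all tested genes (2.43% higher and 3.18% lower). In DKO against Sqstm1 KO, Mmp2, Adam21, Adamts4, Adamts7 and Adamts9 rose and Adamts5 fell, again 6 of 29, beside 5.93% of all tested genes (4.42% higher and 1.51% lower). In DKO against WT, Timp1, Mmp14, Adam12, Adamts2, Adamts4 and Adamts9 rose and Adamts5 and Adamts14 fell, 8 of 29 (27.6%), beside 6.42% (4.11% higher and 2.31% lower). The comparisons share libraries, so their counts are not independent. Adam21 and Adamts14 reached a value of 10 in WT alone and were tested only because they were high there. Adam12 met the filter only with its DKO libraries, where it was high. These counts thus describe the tested genes and are not support for a change of the family.

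The median log2 fold change of the 29 genes was -0.16 in Sqstm1 KO against WT, 0.29 in DKO against Sqstm1 KO and 0.14 in DKO against WT, beside -0.01, -0.01 and -0.02 over all tested genes. In Sqstm1 KO against WT the libraries of the 2 groups did not overlap for 11 of the 29 genes, 4 higher and 7 lower, beside 26% of all tested genes (12.4% higher and 13.6% lower). For DKO against Sqstm1 KO it was 9 genes, 8 higher and 1 lower, beside 21% (11.5% and 9.47%). For DKO against WT it was 13 genes, 7 higher and 6 lower, beside 31.2% (15.7% and 15.5%). Of the library's reads, the 39 genes together took 0.310% to 0.349% in WT, 0.235% to 0.283% in Sqstm1 KO and 0.314% to 0.337% in DKO, and the Sqstm1 KO libraries did not overlap the others. In bulk RNA, fewer cells of a type and less RNA per cell cannot be told apart.

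**Figure D1:**
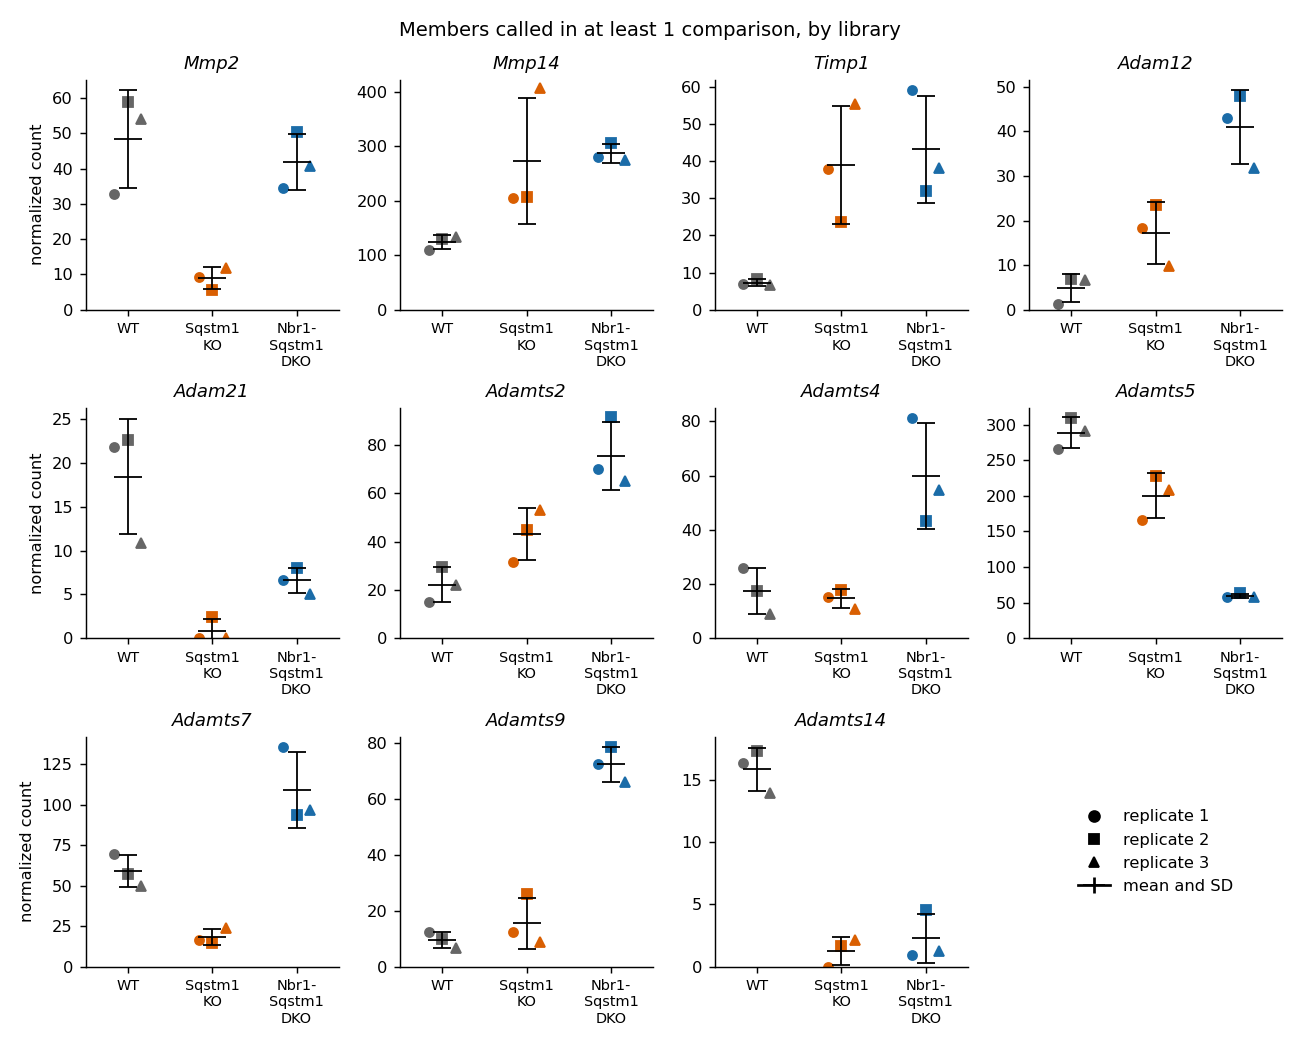
Normalized counts (y axis, linear from 0) of the 11 genes called in at least 1 comparison, in the 3 libraries of each genotype (x axis); circles, squares and triangles are replicates 1, 2 and 3, and black lines are the mean and SD of 3 libraries. Mmp2 and Adamts7 are lowest in Sqstm1 KO, Timp1 and Mmp14 are high in both knock-out groups, and Adamts4 and Adamts9 are high in DKO.

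Of the called genes, 6 have an entry among the RefSeq promoters (build GRCm38.p6), as do 28 of the 39 genes. The 250 bases before the annotated start are shown for 3 genes whose direction against WT was shared by both knock-out groups. They are Timp1 and Mmp14, which rose, and Adamts14, which fell and was tested only because it was high in WT. Capitals mark the GC box GGGCGG, the core site of Sp1-family factors, read on either strand. The Timp1 stretch lies at chrX:20869916-20870165 on the plus strand, that of Mmp14 at chr14:54431348-54431597 on the plus strand, and that of Adamts14 at chr10:61273420-61273669 on the minus strand. Each ends at the base before the RefSeq start and is given 5′ to 3′ in the direction of the gene. The last 19 bases of the Adamts14 stretch lie inside the gene as GENCODE M21 annotates it.
Timp1: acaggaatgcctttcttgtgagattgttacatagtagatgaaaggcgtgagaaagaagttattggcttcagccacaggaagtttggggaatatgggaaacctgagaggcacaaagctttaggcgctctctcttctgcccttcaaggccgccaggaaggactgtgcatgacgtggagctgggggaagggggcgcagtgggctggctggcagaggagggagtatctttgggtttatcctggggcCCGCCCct
Mmp14: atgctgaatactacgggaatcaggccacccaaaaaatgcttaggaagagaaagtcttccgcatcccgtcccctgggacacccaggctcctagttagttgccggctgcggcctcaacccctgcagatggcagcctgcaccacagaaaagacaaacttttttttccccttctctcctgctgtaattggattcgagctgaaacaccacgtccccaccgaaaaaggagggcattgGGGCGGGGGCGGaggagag
Adamts14: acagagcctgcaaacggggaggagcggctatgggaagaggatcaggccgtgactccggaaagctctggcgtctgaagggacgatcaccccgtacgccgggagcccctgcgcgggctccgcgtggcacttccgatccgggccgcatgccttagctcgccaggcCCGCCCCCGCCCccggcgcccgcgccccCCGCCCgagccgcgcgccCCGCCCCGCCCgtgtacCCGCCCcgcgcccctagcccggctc

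The GC box occurred once in the Timp1 stretch, 2 times in that of Mmp14 and 6 times in that of Adamts14, overlapping matches counted. It was present in 5 of the 6 called genes with an entry (Timp1, Mmp14, Adamts2, Adamts9 and Adamts14) and in 32.7% of 32851 promoters of the same length. The AP-1 motif TGANTCA, present in 6.75% of promoters, the interferon-stimulated response element (GAAA and GAAA parted by any 2 bases), in 2.98%, and the TATA box TATAAA, in 12.4%, were in none of the 6. These are matches of letters in this window only, on either strand. Members that were not called were not counted, so the matches cannot be tied to the calls.

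Among the inhibitors, Timp1 rose in both knock-out groups and Timp2 and Timp3 passed the test in neither. Timp1 encodes a secreted inhibitor of most matrix metalloproteinases and is known to rise in activated stellate cells. It stood at 6.81, 8.29 and 6.67 in WT, at 37.8, 23.5 and 55.3 in Sqstm1 KO and at 59.3, 32.0 and 38.2 in DKO. Every knock-out library was above every WT library, and the knock-out groups overlapped. The log2 fold change was 2.20 ± 0.37 (SE, 3 libraries against 3, limma adjusted p = 0.00289) in Sqstm1 KO against WT and 2.38 ± 0.37 (limma adjusted p = 0.00134) in DKO against WT. Between the knock-out groups it was 0.18 with a 95% interval of -0.62 to 0.98.

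Timp2 encodes an inhibitor that also bridges the precursor of MMP2 to MMP14 at the cell surface. Its values were 206, 336 and 323 in WT, 201, 278 and 199.6 in Sqstm1 KO and 118, 208 and 157 in DKO. The groups overlapped in all 3 comparisons, by a small margin between WT replicate 1 and DKO. The log2 fold change of -0.84 ± 0.29 in DKO against WT did not pass the threshold (limma adjusted p = 0.105), and it did without Sqstm1 KO replicate 3 (limma adjusted p = 0.0372) and without all 3 Sqstm1 KO libraries (limma adjusted p = 0.0465). Timp3, whose product stays bound to the matrix and inhibits ADAM17 and the aggrecanases, was at 354, 390.2 and 408 in WT, 239, 319 and 248 in Sqstm1 KO and 339, 295 and 281 in DKO. All 6 knock-out libraries were below the WT libraries, but neither difference passed the test (log2 fold change -0.52, adjusted p = 0.235, and -0.33, adjusted p = 0.450, both limma). Timp3 shares 21.3% of its exon bases with Syn3 on the other strand, and Syn3 was at 238 ± 57.0, 103 ± 32.2 and 126 ± 32.9 in WT, Sqstm1 KO and DKO (SD, n = 3).

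Of 6 tested matrix metalloproteinases, Mmp2 and Mmp14 changed. Mmp2 encodes gelatinase A, a secreted enzyme that cuts denatured collagen and basement membrane collagen. It was at 32.7, 58.8 and 54.0 in WT, fell to 9.19, 5.68 and 11.9 in Sqstm1 KO, and was at 34.4, 50.2 and 40.8 in DKO. The Sqstm1 KO libraries were all below the other 6, which overlapped with each other. The log2 fold change was -2.32 ± 0.36 in Sqstm1 KO against WT (limma adjusted p = 0.00138), a 5.01-fold fall on the value + 1 scale. In DKO against Sqstm1 KO it was 2.14 ± 0.36 (limma adjusted p = 0.00205), a 4.42-fold rise. Against WT DKO differed by -0.18, with a 95% interval of -0.94 to 0.58.

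Mmp14 encodes the membrane-type enzyme MT1-MMP, which cuts fibrillar collagen at the cell surface and activates the MMP2 precursor. Its values were 110.3, 130.3 and 133 in WT, 205, 207 and 408 in Sqstm1 KO and 280.2, 307 and 275 in DKO. All knock-out libraries were above WT, and the highest was Sqstm1 KO replicate 3, the library that stood apart. The log2 fold changes against WT were 1.05 ± 0.28 for Sqstm1 KO (limma adjusted p = 0.0435) and 1.20 ± 0.28 for DKO (limma adjusted p = 0.0197). Both calls depended on single libraries. The first gave limma adjusted p = 0.0555 without Sqstm1 KO replicate 3, 0.163, 0.144 and 0.110 without WT replicate 1, 2 or 3, and 0.0564, 0.0569 and 0.0740 without DKO replicate 1, 2 or 3, and 0.0948 without all 3 DKO libraries. The second gave 0.0798, 0.0790 and 0.0648 without WT replicate 1, 2 or 3 and 0.0608, 0.0554 and 0.0729 without DKO replicate 1, 2 or 3.

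Mmp24 and Mmp19 passed no test with all libraries in the fit. Mmp24, which encodes the membrane-type enzyme MT5-MMP, was at 797, 673 and 575 in WT, 484, 381 and 976 in Sqstm1 KO and 781, 718 and 759 in DKO. Mmp19, which encodes a secreted basement membrane protease, ran from 450.5 to 720.4 in WT, 257 to 608 in Sqstm1 KO and 548 to 694 in DKO. Sqstm1 KO replicate 3 was the highest of its group for both genes. Without it they passed the test in DKO against Sqstm1 KO, with log2 fold changes of 0.81 for Mmp24 (limma adjusted p = 0.0491) and 1.06 for Mmp19 (limma adjusted p = 0.0184). With all libraries the adjusted p was 0.527 for Mmp24 and 0.247 for Mmp19. Mmp19 shares 22.3% of its exon bases with Tmem198b on the other strand, whose mean was 353 ± 96.3 in WT, 304 ± 105 in Sqstm1 KO and 1579 ± 179 in DKO (SD, n = 3). Mmp24 shares 13.6% with BC029722, which had 7.86 ± 2.86, 5.01 ± 2.57 and 7.10 ± 5.08. Mmp16 and Mmp23, both near the filter, had adjusted p of 0.751 or more in all 3 comparisons.

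**Figure D2:**
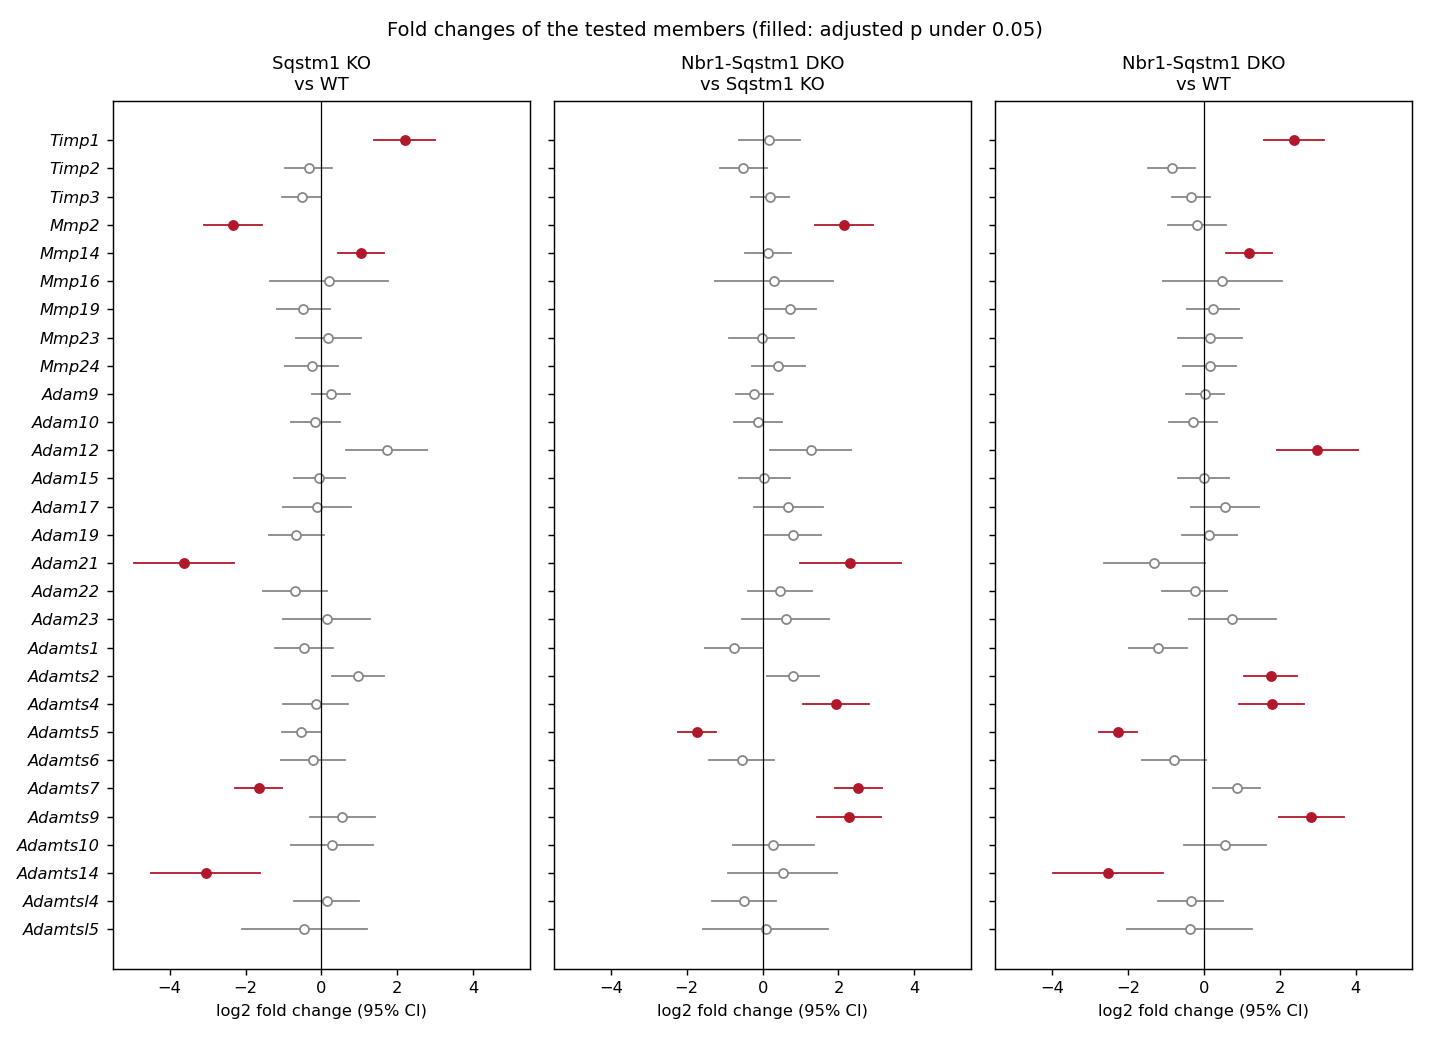
Log2 fold change on the value + 1 scale (x axis) of the 29 tested genes (y axis, ordered by family) in the 3 comparisons; lines are 95% intervals that are not adjusted for the number of genes, and filled red points have a limma adjusted p under 0.05. Mmp2, Adam21 and Adamts7 lie left of 0 in Sqstm1 KO against WT and right of 0 in DKO against Sqstm1 KO.

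Among 9 tested ADAM genes, Adam12 and Adam21 changed and the main sheddases Adam10 and Adam17 passed no test. Adam12 encodes a protease and adhesion protein that is known from activated stellate cells and cuts growth factor binding proteins. Its values were 1.36, 6.78 and 6.67 in WT, 18.4, 23.5 and 9.76 in Sqstm1 KO and 43.0, 47.9 and 31.8 in DKO. The 3 groups did not overlap: each Sqstm1 KO library lay above WT and below every DKO library. Outside DKO, Adam12 reached a value of 10 only in Sqstm1 KO replicates 1 and 2. It thus met the filter of 3 libraries only with DKO, where it was high. Its p-values and intervals for DKO are descriptive and are not support for a rise. The rise passed the test in DKO against WT (log2 fold change 2.99 ± 0.50, limma adjusted p = 0.00213). The difference of 1.73 ± 0.50 in Sqstm1 KO against WT did not (limma adjusted p = 0.0599), and it did without Sqstm1 KO replicate 3 (limma adjusted p = 0.0177), with quantile normalization (limma adjusted p = 0.0156) and with DESeq2 (adjusted p = 0.0317). The difference of 1.26 ± 0.50 between the knock-out groups did not either (limma adjusted p = 0.186).

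Adam21, a gene known mainly from the testis, had few reads. It was at 21.8, 22.6 and 10.9 in WT, at 0, 2.43 and 0 in Sqstm1 KO and at 6.69, 7.99 and 5.09 in DKO. WT was highest and Sqstm1 KO lowest, with no overlap between any pair of groups. Adam21 reached a value of 10 in WT alone and was tested only because it was high there. Its p-value and interval against WT are thus descriptive and are not support for a fall. The fall in Sqstm1 KO against WT rested on 3 reads against 64, a ratio of 18.0 with an exact binomial 95% interval of 5.89 to 89.7 that covers counting error only (limma adjusted p = 0.00297). The rise in DKO against Sqstm1 KO rested on 18 reads against 3, a ratio of 6.95 with an interval of 2.03 to 36.8 (limma adjusted p = 0.0415). That call was lost with limma adjusted p of 0.0571 to 0.110 when any library other than Sqstm1 KO replicate 2 was left out, with edgeR (adjusted p = 0.0933) and with DESeq2 (adjusted p = 0.0810). It was also lost with a pseudocount of 5 (limma adjusted p = 0.0926), with quantile normalization (limma adjusted p = 0.0993) and without the WT libraries (limma adjusted p = 0.176).

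Adam17, the sheddase of tumour necrosis factor and of epidermal growth factor receptor ligands, passed no test with all libraries. Its values were 286, 199 and 184 in WT, 172, 109 and 438 in Sqstm1 KO and 444, 227 and 335 in DKO. Sqstm1 KO replicate 3 was again the highest of its group and reached the level of DKO. Without it the log2 fold change in DKO against Sqstm1 KO was 1.24 (limma adjusted p = 0.0165), and with it 0.68 (limma adjusted p = 0.412). Adam17 shares 4.35% of its exon bases with Iah1 on the other strand, whose means were 13.7 to 16.8 in the 3 groups. Adam10, which sheds Notch receptors, ranged from 42.1 to 84.3 over the 9 libraries, Adam9 from 172 to 234 and Adam15 from 21.7 to 46.3, and their groups overlapped in all 3 comparisons. Adam19 was at 20.4, 26.4 and 20.6 in WT, 16.3, 14.6 and 10.8 in Sqstm1 KO and 21.0, 21.7 and 33.1 in DKO, where Sqstm1 KO was below both other groups without passing the test (limma adjusted p = 0.307 and 0.220). Adam15 shares 20.6% of its exon bases with 4731419I09Rik on the other strand, and Adam19 shares 8.25% with Gm16033 and 6.75% with Gm16034, none of which had a row. Adam22 and Adam23, which encode adhesion proteins without protease activity, overlapped between groups in all 3 comparisons.

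Of 9 tested ADAMTS genes, 6 changed in some comparison, beside the 12% of all tested genes. Adamts5 and Adamts4 encode the main aggrecanases, which cut aggrecan and versican, and in DKO they moved in opposite directions. Adamts5 was at 266, 309 and 291 in WT, 165, 227 and 208 in Sqstm1 KO and 57.4, 62.8 and 57.3 in DKO. The 3 groups did not overlap, with DKO lowest. The fall passed the test in DKO against WT (log2 fold change -2.27 ± 0.23, limma adjusted p = 3.36e-05) and against Sqstm1 KO (-1.73 ± 0.23, limma adjusted p = 0.000362), but not in Sqstm1 KO against WT (-0.53 ± 0.23, limma adjusted p = 0.219).

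Adamts4 was at 25.9, 17.3 and 9.10 in WT, 15.3, 17.9 and 10.8 in Sqstm1 KO and 81.3, 43.4 and 54.8 in DKO. The DKO libraries were above the other 6. The rise was 1.93 ± 0.40 on the log2 scale against Sqstm1 KO (limma adjusted p = 0.00945) and 1.79 ± 0.40 against WT (limma adjusted p = 0.0155). Without DKO replicate 1, the highest library, the adjusted p became 0.0572 and 0.0794. The call against WT was also lost without WT replicate 2 (0.0584), WT replicate 3 (0.0917) or DKO replicate 3 (0.0613), all from limma.

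Within each library, the value of Adamts5 divided by that of Adamts4 was 10.3, 17.8 and 32.0 in WT and 10.8, 12.7 and 19.2 in Sqstm1 KO. In DKO it was 0.706, 1.45 and 1.05. The DKO did not overlap the other groups. The exact two-sided permutation p was 0.1 against either group, the smallest that 3 against 3 libraries can give, and 0.7 between WT and Sqstm1 KO. A ratio of Mmp14 to Timp2 was 0.536, 0.388 and 0.414 in WT, 1.02, 0.743 and 2.04 in Sqstm1 KO and 2.38, 1.48 and 1.76 in DKO. Both knock-out groups lay above WT (exact two-sided permutation p = 0.1 each) and overlapped with each other (exact permutation p = 0.3). Both ratios were chosen after the values were seen, so these p-values describe the separation and are not support for it. Adamts5 and Adamts4 each separated DKO from the other groups in opposite directions, which fixed the 0.1 of their ratio beforehand. Since gene length and strand enter the ratios, the ratios compare groups, not genes.

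**Figure D3:**
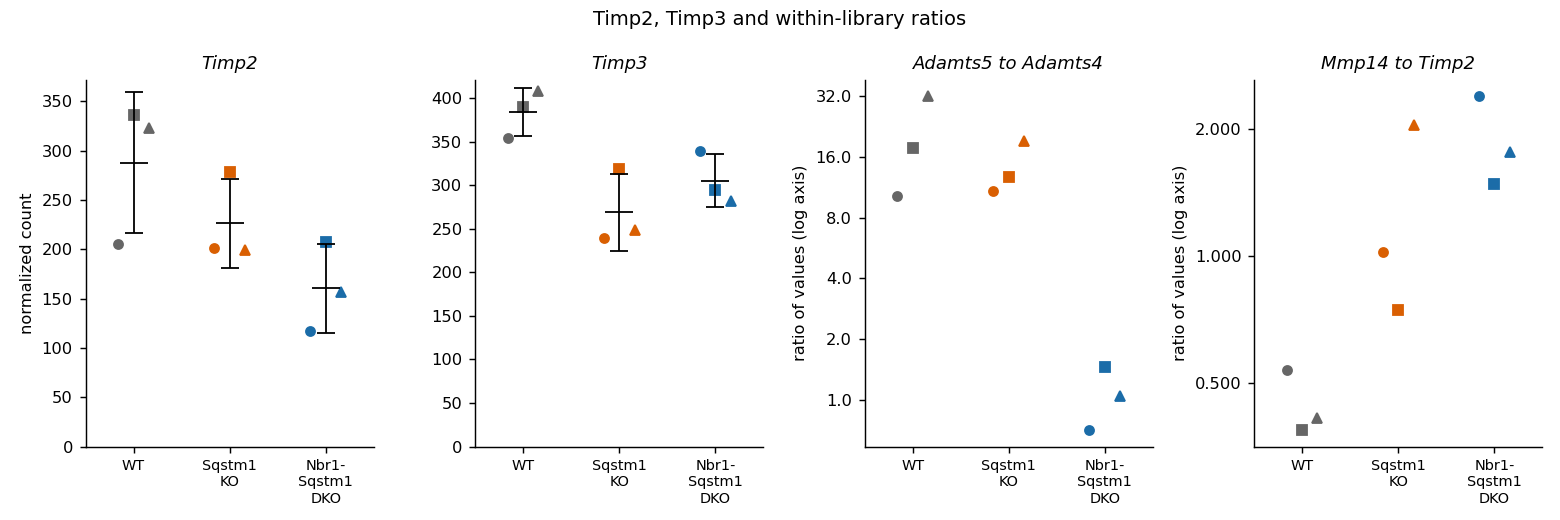
Normalized counts of Timp2 and Timp3 (left 2 panels, linear axes from 0, black lines are the mean and SD of 3 libraries) and the within-library ratios of Adamts5 to Adamts4 and of Mmp14 to Timp2 (right 2 panels, log axes) by genotype; circles, squares and triangles are replicates 1, 2 and 3. The Adamts5 to Adamts4 ratio is at least 10.3 in the 6 WT and Sqstm1 KO libraries and at most 1.45 in DKO.

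Adamts9 and Adamts1 encode further proteoglycanases that act on versican. Adamts9 was at 12.3, 9.79 and 6.67 in WT, 12.3, 26.0 and 8.68 in Sqstm1 KO and 72.7, 78.8 and 66.2 in DKO. WT and Sqstm1 KO overlapped, and DKO libraries were far above both. The log2 fold change was 2.83 ± 0.40 against WT (limma adjusted p = 0.000520) and 2.28 ± 0.40 against Sqstm1 KO (limma adjusted p = 0.00296). On the other strand Adamts9 shares 9.18% of its exon bases with A730049H05Rik, which had means of 11.7 ± 6.40, 32.0 ± 21.2 and 133 ± 26.0 in WT, Sqstm1 KO and DKO (SD, n = 3). It shares a further 2.82% with Gm15737, which had 33.0 ± 7.03, 65.5 ± 36.9 and 384 ± 83.5. Both partners were highest in DKO, as Adamts9 was, and their part in its value was not tested. Adamts1 was at 55.8, 82.1 and 66.7 in WT, 63.3, 55.2 and 33.6 in Sqstm1 KO and 20.1, 47.9 and 24.2 in DKO. The DKO lay below WT, with a log2 fold change of -1.21 ± 0.36 that did not pass the test (limma adjusted p = 0.0623). It did without Sqstm1 KO replicate 3 (limma adjusted p = 0.0144) and without DKO replicate 2 (limma adjusted p = 0.0194). With all libraries it passed with quantile normalization (limma adjusted p = 0.0364), with DESeq2 (adjusted p = 0.0471) and with only the WT and DKO libraries in the fit (limma adjusted p = 0.0247).

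Adamts7 encodes a protease of cartilage oligomeric matrix protein. It was at 69.5, 57.3 and 49.7 in WT, 16.3, 14.6 and 23.9 in Sqstm1 KO and 136, 93.6 and 96.8 in DKO. No 2 groups overlapped, with Sqstm1 KO lowest and DKO highest. It fell in Sqstm1 KO against WT (log2 fold change -1.65 ± 0.29, limma adjusted p = 0.00362) and rose in DKO against Sqstm1 KO (2.52 ± 0.29, limma adjusted p = 0.000103). The DKO was 0.87 ± 0.29 above WT on the log2 scale, which did not pass the test (limma adjusted p = 0.0972) and did without Sqstm1 KO replicate 3 (limma adjusted p = 0.0286) or without all 3 Sqstm1 KO libraries (limma adjusted p = 0.0307). Adamts7 shares 1.94% of its exon bases with Tbc1d2b on the other strand, which was at 15.9 ± 1.70, 10.5 ± 6.37 and 31.3 ± 8.20 in WT, Sqstm1 KO and DKO (SD, n = 3). The order of the 3 group means was the same for both genes.

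Adamts2, Adamts14 and Adamts3 encode the procollagen N-proteinases, which remove the amino-terminal propeptide of fibrillar procollagens. Adamts2 was at 15.0, 29.4 and 21.8 in WT, 31.6, 44.6 and 53.1 in Sqstm1 KO and 69.8, 91.3 and 65.0 in DKO. The groups were ordered without overlap, as for Adam12. The DKO was higher than WT (log2 fold change 1.76 ± 0.32, limma adjusted p = 0.00391), while the steps of 0.95 from WT to Sqstm1 KO (limma adjusted p = 0.108) and of 0.81 between the knock-out groups (limma adjusted p = 0.190) did not pass.

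Adamts14 had the opposite direction. Its values were 16.3, 17.3 and 13.9 in WT, 0, 1.62 and 2.17 in Sqstm1 KO and 0.956, 4.57 and 1.27 in DKO. WT lay above all 6 knock-out libraries, and the knock-out groups overlapped. Adamts14 reached a value of 10 in WT alone and was tested only because it was high there. Its p-values and intervals against WT are thus descriptive and are not support for a fall. Over the group, 58 WT reads stood against 4 in Sqstm1 KO, a WT to Sqstm1 KO ratio of 12.2 with an exact binomial 95% interval of 4.53 to 46.4 (limma adjusted p = 0.0156). Against 6 reads in DKO the ratio was 7.05 with an interval of 3.05 to 20.0 (limma adjusted p = 0.0373). The first call was lost without WT replicate 1, 2 or 3 (limma adjusted p = 0.0798, 0.103 and 0.0722) or Sqstm1 KO replicate 1 (0.0519). The second was lost without WT replicate 1, 2 or 3 (limma adjusted p = 0.121, 0.181 and 0.137) or DKO replicate 1 or 3 (0.108 and 0.119), and with a pseudocount of 0.5 (0.0714). Adamts3 was below the filter, at 0, 3.77 and 1.82 in WT, 0 in all Sqstm1 KO libraries and 4.78, 5.71 and 5.09 in DKO.

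Adamts6 and Adamts10, linked to fibrillin microfibrils, did not pass in any comparison. Adamts10 ranged from 8.17 to 26.3 over the libraries. Adamts6 was at 13.6 to 20.0 in WT and at 6.69 to 10.3 in DKO, without overlap (limma adjusted p = 0.278). The ADAMTS-like genes Adamtsl4 and Adamtsl5 lack a protease domain and likewise did not pass. Adamtsl4 was at 36.8, 33.9 and 29.7 in WT, 49.0, 40.6 and 24.9 in Sqstm1 KO and 43.0, 13.7 and 29.3 in DKO, so the groups overlapped throughout.

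The 10 genes below the filter were Mmp3, Mmp10, Mmp11, Mmp13, Mmp28, Adam1a, Adamts3, Adamts12, Adamtsl1 and Adamtsl3. In a fit with no filter, 3 of them passed in some comparison, beside 10.6% of all 14020 genes in that fit and 7.15% of the 3902 genes below the filter. Mmp3, which encodes the broad-range protease stromelysin-1, was at 4.09, 2.26 and 3.03 in WT, 0, 1.62 and 0 in Sqstm1 KO and 10.5, 17.1 and 5.09 in DKO (DKO against Sqstm1 KO, limma adjusted p = 0.0104). Adamtsl1 was at 0, 3.01 and 0.606 in WT, 8.17, 15.4 and 9.76 in Sqstm1 KO and 0, 1.14 and 0 in DKO, with Sqstm1 KO above both other groups (limma adjusted p = 0.0354 against WT and 0.0104 against DKO). Adamts3 passed in DKO against Sqstm1 KO (limma adjusted p = 0.0358). Mmp10 and Mmp13, a stromelysin and a collagenase, had 18 and 19 reads over the 9 libraries, and 13 reads of each were in DKO. Mmp28 was at 2.72 to 3.64 in WT, 4.06 to 9.19 in Sqstm1 KO and 0 to 1.27 in DKO.

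**Figure D4:**
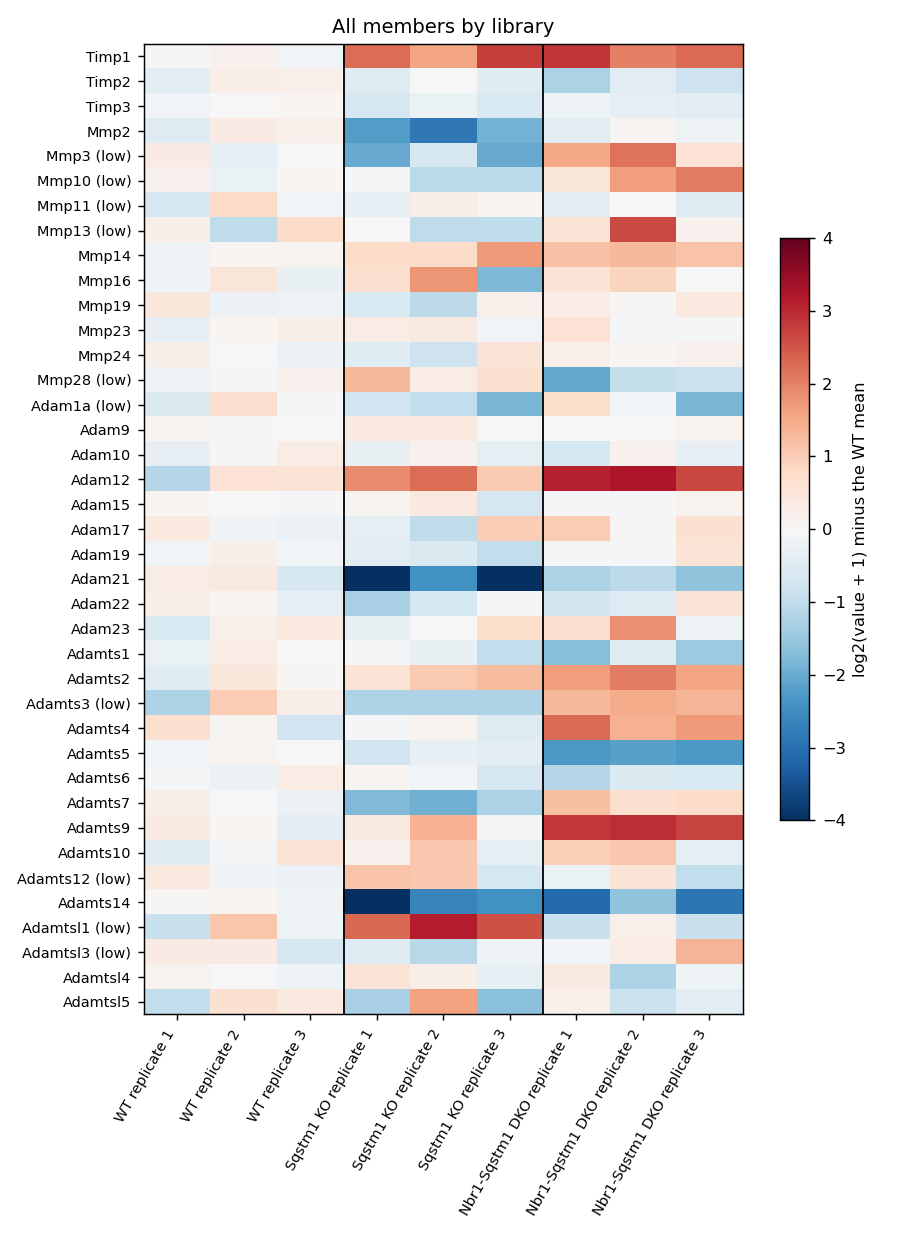
Log2 of the value plus 1 minus the WT mean (colour, ending at -4 and 4) for the 39 genes (rows, by family) in the 9 libraries (columns); genes marked low were below the filter. Timp1 and Adam12 lie above the WT mean (red) in all 6 knock-out libraries, Adamts5 and Adamts14 below it (blue), and Mmp2 and Adamts7 are below it in the 3 Sqstm1 KO libraries.

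Genes that act on these proteases or are cut by them were counted from 4 lists, and the counts stand beside the 5.61%, 5.93% and 6.42% of all tested genes called in Sqstm1 KO against WT, DKO against Sqstm1 KO and DKO against WT. Among partners and regulators (14 tested of 24), Thbs2, which encodes a matricellular protein that helps clear MMP2, fell from 170.2, 188 and 226 in WT to 0, 2.43 and 1.08 in Sqstm1 KO (log2 fold change -6.66, limma adjusted p = 3.94e-07). It was at 137, 188 and 115 in DKO, a rise against Sqstm1 KO (6.23, limma adjusted p = 7.17e-07). Mmp2 was thus low in the same libraries as Thbs2. Tspan5, a tetraspanin that carries ADAM10 to the cell surface, was at 34.0, 30.9 and 36.4 in WT, 14.3, 5.68 and 5.42 in Sqstm1 KO and 2.87, 9.13 and 3.82 in DKO, a fall in DKO against WT (-2.60, limma adjusted p = 0.00464). Outside WT, Tspan5 reached a value of 10 only in Sqstm1 KO replicate 1. It was thus tested only because it was high in WT, and its p-values against WT are descriptive. Its fall in Sqstm1 KO against WT (-2.00, limma adjusted p = 0.0267) was lost without WT replicate 1, 2 or 3 (limma adjusted p = 0.107, 0.104 and 0.113) or Sqstm1 KO replicate 2 (0.0691). Sdc1, a heparan sulphate proteoglycan, was at 25.9 to 28.5 in WT and 44.6 to 67.4 in DKO (1.01, limma adjusted p = 0.0482), a call lost without any 1 library other than Sqstm1 KO replicate 3 (limma adjusted p = 0.0548 to 0.168). The list's counts were 0 higher and 2 lower in Sqstm1 KO against WT, 1 and 0 in DKO against Sqstm1 KO and 1 and 1 in DKO against WT, with medians of -0.36, 0.16 and -0.08. With a library left out the number called was 1 or 2, 1 or 2, and 1 to 3, the highest in the last 2 comparisons without Sqstm1 KO replicate 3.

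Among proteoglycan and matrix substrates (20 tested of 29), 3 rose and 0 fell in Sqstm1 KO against WT, 5 and 0 in DKO against Sqstm1 KO, and 6 and 0 in DKO against WT, with medians of 0.07, 0.11 and 0.53. With a library left out the number called was 2 to 7, 3 to 6 and 6 to 10, the highest each time without Sqstm1 KO replicate 3 and the 2 without WT replicate 2 or 3. The 3 in DKO against Sqstm1 KO came without WT replicate 3, Sqstm1 KO replicate 1 or any DKO library. Vcan encodes versican, a substrate of ADAMTS1, ADAMTS4, ADAMTS5 and ADAMTS9. It was at 23.2, 34.7 and 31.5 in WT, 30.6, 44.6 and 6.51 in Sqstm1 KO and 141, 224 and 183 in DKO, a rise against Sqstm1 KO (log2 fold change 3.03, limma adjusted p = 0.00220). The laminin chain gene Lama4 was at 5.10 to 13.0 in Sqstm1 KO and 38.2 to 81.1 in DKO (2.52, limma adjusted p = 0.00202). The collagen gene Col1a2 and the proteoglycan gene Dcn, both also stellate markers, rose in Sqstm1 KO (2.84 and 3.83, limma adjusted p = 1.70e-05 and 0.000305) and in DKO against WT (2.56 and 5.65, limma adjusted p = 3.36e-05 and 7.58e-06).

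Other extracellular proteases and inhibitors (17 tested of 36) gave 2 higher and 1 lower in Sqstm1 KO against WT, 3 and 2 in DKO against Sqstm1 KO and 2 and 2 in DKO against WT, with medians of -0.10, -0.25 and 0.03. Ctsk, which encodes the collagen-cutting cathepsin K, was at 0, 0 and 1.21 in WT, 5.10, 5.68 and 8.68 in Sqstm1 KO and 11.5, 21.7 and 19.1 in DKO, a rise in DKO against WT (log2 fold change 3.78, limma adjusted p = 0.00110). It reached a value of 10 in DKO alone and was tested only because it was high there. Bmp1, the procollagen C-proteinase, was at 27.6, 34.9 and 19.5 in Sqstm1 KO and rose to 76.5, 73.1 and 121 in DKO (1.69, limma adjusted p = 0.00474). Serpinf1, a secreted serpin, was at 12.3, 27.9 and 25.5 in WT, 3.06, 4.06 and 5.42 in Sqstm1 KO and 42.1, 82.2 and 38.2 in DKO (3.35 in DKO against Sqstm1 KO, limma adjusted p = 0.000240). Leaving out WT replicate 2 took the Sqstm1 KO against WT count of this list from 3 to 0. The count in DKO against Sqstm1 KO was 3 without DKO replicate 3 and 8 without Sqstm1 KO replicate 3, and that in DKO against WT was 1 without WT replicate 2 or DKO replicate 3 and 7 without Sqstm1 KO replicate 3.

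Surface proteins shed by ADAM proteases (18 tested of 29) gave 0 higher and 1 lower in Sqstm1 KO against WT, 3 and 0 in DKO against Sqstm1 KO and 2 and 0 in DKO against WT, with medians of -0.09, 0.33 and 0.52. Notch3 encodes a receptor of mural cells that ADAM10 cuts. It was at 23.2, 17.3 and 15.2 in WT, 4.08, 10.6 and 6.51 in Sqstm1 KO and 59.3, 54.8 and 65.0 in DKO, a rise against Sqstm1 KO (2.99, limma adjusted p = 0.000182). Its fall in Sqstm1 KO against WT (-1.34, limma adjusted p = 0.0481) was lost without any 1 library other than Sqstm1 KO replicate 2 or 3 (limma adjusted p = 0.0625 to 0.188). Pdgfra, a growth factor receptor, was at 56.1 to 99.0 in Sqstm1 KO and 185 to 270.0 in DKO (1.67, limma adjusted p = 0.00228). The 2 rises of this list in DKO against WT were both lost without WT replicate 2, WT replicate 3 or DKO replicate 3, where the count was 0, and the count was 5 without Sqstm1 KO replicate 3.

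The sum of the stellate markers was higher in all 6 knock-out libraries than in WT, as were Timp1, Mmp14, Adam12 and Adamts2, and its part in their values was not tested. Most of the sum in every library was Col1a1 and Col1a2. Col1a1 was at 714 to 783 in WT, 932 to 2475 in Sqstm1 KO and 895 to 3192 in DKO. Col1a2 was at 281 to 303, 1858 to 2356 and 1584 to 1966 in the same order. Of the 11 measured stellate markers 9 were higher in all 6 knock-out libraries than in WT. Of all tested genes, 12.4% were higher than WT without overlap in Sqstm1 KO and 15.7% in DKO, each group taken alone. Nes was lower, at 99.4 to 105 in WT, 34.7 to 43.0 in Sqstm1 KO and 47.1 to 87.0 in DKO, a fall that passed the test in Sqstm1 KO (log2 fold change -1.34, limma adjusted p = 0.0101) and not without WT replicate 2 (0.0632). Pdgfrb overlapped between WT and both knock-out groups (44.9 to 61.9, 43.4 to 60.1 and 58.6 to 78.8). Of 9 macrophage markers 4 had a row, with a sum of 20.3 to 35.4 in WT, 8.68 to 12.3 in Sqstm1 KO and 14.3 to 29.3 in DKO. The defining markers Adgre1, Clec4f, Lyz2 and Tyrobp had no row and were not analysed here. This sum was lowest in Sqstm1 KO, as were Mmp2, Adam21 and Adamts7. Of the 4 markers, Cd14 alone was lower in Sqstm1 KO without overlap, at 14.6 to 21.8 in WT, 0 to 3.06 in Sqstm1 KO and 6.85 to 17.8 in DKO. Cd68, Csf1r and Mpeg1 overlapped in all 3 comparisons, and a part of these cells in the values was not tested. The single endothelial marker measured was at 9.70 to 16.3 in WT, 2.17 to 8.17 in Sqstm1 KO and 2.87 to 12.6 in DKO. For portal fibroblasts and mesothelium 5 of 9 markers had a row, with sums of 206 to 244, 242 to 435 and 325 to 335. Most of the sum was Fbln2, at 170.2 to 223, 225 to 420 and 294 to 298. Against WT, Thy1 and Fbln2 were higher and Igfbp6 lower in Sqstm1 KO without overlap, while Cd34 and Wt1 overlapped. In DKO, 4 of the 5 were higher than WT and Igfbp6 was lower, again without overlap, beside 15.7% higher and 15.5% lower of all tested genes. Of these, Thy1 and Wt1 were below the filter, with 10 and 15 reads in DKO against 6 and 0 in WT. Thy1 was at 1.91 to 5.09 in DKO and 1.36 to 1.82 in WT. Igfbp6 was at 19.4 to 30.0 in WT, 0 to 4.87 in Sqstm1 KO and 7.99 to 15.3 in DKO. The order of its group means was that of Mmp2, but its DKO libraries lay below WT, where those of Mmp2 overlapped. A part of Igfbp6 in the Mmp2 values was not tested. Igfbp6 fell in Sqstm1 KO against WT (log2 fold change -3.33, limma adjusted p = 0.00384) and rose in DKO against Sqstm1 KO (2.23, limma adjusted p = 0.0404). Outside WT, Igfbp6 reached a value of 10 only in DKO replicates 1 and 3. It was thus tested only because it was high in WT, and its p-value against WT is descriptive. The call of a rise was lost without any 1 library other than Sqstm1 KO replicate 2 (limma adjusted p = 0.0547 to 0.147). Of 8 hepatocyte markers 1 was measured, at 36.4 to 106, 68.2 to 110 and 73.1 to 117, and 2 of 5 cholangiocyte markers summed to 16.3 to 26.4, 29.2 to 34.7 and 25.8 to 49.1.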

How the data were processed

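The deposited values are a signal: read counts per gene, scaled by the authors with 1 size factor for each library. The submitters' processing notes name STAR, DESeq2 and the build GRCm39 without versions, and no gene filter or annotation is given in the sources used here. Over the 9 libraries, all 121126 values above 0 were whole multiples of the smallest step of their library within a tolerance of 0.01 (100%). Whole reads were thus recovered, and 0 columns were left unused. The lowest gene total was 14 reads.

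limma 3.58.1 (R 4.3.3) with a mean-variance trend was fitted to log2(value + 1) over all 9 libraries in 3 groups, for the 10118 genes that reached a value of 10 in 3 or more libraries. The tests were two-sided, with 14.0 degrees of freedom after limma's moderation and Benjamini-Hochberg adjustment within each of 3 comparisons. Fold changes on this scale understate the change of low genes. Fits with edgeR 4.0.16 and DESeq2 1.42.0 on the recovered reads, other pseudocounts, filters and scalings, a replicate block and left-out libraries were alternatives, and the code was tested on simulated data. Intervals of read ratios cover counting error only, and those of fold changes come from the limma fit.

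Exon overlaps and lengths came from GENCODE M21 on GRCm38, an earlier build than the authors', to which 12370 genes (88.2%) were matched by symbol. One overlapping gene is not reported here. Library values were printed for every called gene, every Timp gene and the gene with the highest mean in each family, a rule for naming only. From each list, up to 2 called genes per direction were eligible for naming. Other genes were named to account for the members or after their values were seen. The members and lists were chosen with earlier results of these data known.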

Additional observations from a re-analysis of the deposited data

How the results depend on the processing

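Of the 20 calls on the 39 genes, 13 held whichever library was left out and 7 were lost with some library, and no sign turned under any alternative run. The number of genes called among the tested members in Sqstm1 KO against WT was 6, and it was 3 with a value of at least 50 required in at least 3 libraries and 4 to 6 with a library left out, 4 without any 1 of the WT libraries. In DKO against Sqstm1 KO it was 6, and it was 3 without members that overlap an exon on the other strand and 4 to 8 with a library left out, 4 without DKO replicate 1 and 8 without Sqstm1 KO replicate 3. In DKO against WT it was 8, and it was 4 with the filter at 50 and 5 to 11 with a library left out, 11 without Sqstm1 KO replicate 3 and 5 without WT replicate 2 or 3 or DKO replicate 1 or 3. With edgeR the 3 counts were 6, 5 and 8, and with DESeq2 7, 5 and 9. Over all genes the counts were 568, 600 and 650. They were 290, 291 and 360 with the filter at 50, 352 and 1229 for the last 2 comparisons with only the 2 groups compared in the fit, and 264 to 659, 333 to 777 and 294 to 1409 with a library left out. The cause was not tested, except that the filter at 50 leaves fewer genes to test.

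Replicate numbers were shared between groups. Deviations from the group means correlated at -0.115 to 0.178 over 9 same-numbered pairs (mean 0.0870, 8 of them above 0 and 5 above 0.1) and at -0.258 to 0.261 over 18 others (mean -0.0439). Not every same-numbered pair was above 0.1, so the numbers were not taken to pair the libraries, and 5 of 9 libraries were closest to their own number in both other groups. With the number as a replicate block, 7, 6 and 10 members and 690, 672 and 754 genes were called in the 3 comparisons. Under it Adam12 passed in Sqstm1 KO against WT (limma adjusted p = 0.0458), and Adamts1 (0.0347) and Timp2 (0.0497) passed in DKO against WT, and it changed no other call of a member. Values of 10 normalized counts rest on few reads at these library totals, which limits Adam21, Adamts14 and the genes below the filter.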
